A study of Homo sapiens with 12 samples.

Results

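The coat of caveolae is represented here by 6 genes: CAV1 and CAV2, which encode caveolins, CAVIN1, CAVIN2 and CAVIN3, which encode cavins, and EHD2, which encodes an ATPase at the neck of the caveola. They were found by gene name among the 58735 genes of the count table. All 6 passed the filter on low counts, which 14920 genes passed. The set was chosen by a measured value: CAV1 had been seen to be much lower in libraries that received CXCL14 siRNA. Values of the 6 genes in the 3 comparisons that hold CXCL14 siRNA are therefore given as a description, without a test. Tests are given for ATF3 siRNA against control, APOE siRNA against control and ATF3 siRNA against APOE siRNA. The control libraries also stood in the comparison that drew attention to CAV1, and the last of these tests does not use them.

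The series measured polyadenylated RNA in 12 libraries of N/TERT-2G cells, an immortalised human keratinocyte line, in a study of vulvar lichen sclerosus, a chronic scarring skin disorder. Cells in 6-well plates were transfected with 100 pmol of siRNA per well and given new medium after 6 h, in 4 groups of 3 libraries: negative control siRNA, siRNA against ATF3 (a stress-induced transcription factor), siRNA against APOE (a lipid carrier) and siRNA against CXCL14 (an epithelial chemokine). All groups share the line and the lipid transfection, so the model is a single line, and the labels do not say whether the 3 libraries of a group came from separate cultures. P-values then measure only the spread between these libraries, which may be technical.

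Caveolae are small flask-shaped pits of the plasma membrane. Caveolins insert into the inner leaflet and oligomerise, and CAV1 is needed to form caveolae outside muscle, while CAV2 joins CAV1 in mixed oligomers. Cavins are cytosolic proteins that bind the caveolin lattice from outside: CAVIN1 is required for the pit to form, CAVIN2 and CAVIN3 assemble with it, and EHD2 rings the neck and holds the pit at the surface. Caveolae flatten when a membrane is stretched, and caveolins have been studied in keratinocytes as a membrane platform for receptors and as a brake on growth.

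CAV1 (chr7:116524785-116561184, plus strand, hg38) and CAV2 (chr7:116287380-116508541, plus strand) are neighbours, and 16244 bp lie between the end of the CAV2 gene and the start of CAV1 in the table. CAVIN1 lies at chr17:42402452-42423517 and CAVIN2 at chr2:191834302-191847255, both on the minus strand. CAVIN3 lies at chr11:6318946-6320647 on the minus strand and EHD2 at chr19:47713343-47743134 on the plus strand. Start-site windows from RefSeq (GRCh38.p14, 250 bases before to 50 after the start) were on hand for 4 of the 6 genes: 3 windows for CAV1, 2 for CAV2 and 1 each for CAVIN2 and EHD2. The CAV2 windows, within chr7:116499488-116500095, lie near the end of the CAV2 gene of the count table, far downstream of its start there. The windows are shown because CAV1, CAV2 and CAVIN2 differed in direction with CXCL14 siRNA, and the capitals mark the motif found on either strand. Positions count from the start site, and each stretch reads 5′ to 3′ on the strand of its gene.
CAV1, GC box at -92 of the start farthest upstream, chr7:116524905-116524934: caaacctttggcGGGCGGccaggaggctcc
CAV1, GC box at -95 of the start farthest downstream, chr7:116526255-116526284: acccctggcggcGGGCGGgggaggcaggcg
CAV2, GC box at -49 of the start farther upstream, chr7:116499677-116499706: cgaggcgaggggGGGCGGggccgggcgcta
EHD2, GC box at -57 read on the opposite strand, chr19:47713353-47713382: gggcgcctcgtcCCGCCCctccctcctgtc
CAVIN2, TEAD motif at -16, chr2:191847087-191847116: ttaagagcagctGGAATGcagttcccctga

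GGGCGG, the GC box that Sp1-type factors bind, occurred 3, 3 and 2 times in the windows of CAV1, 6 and 4 times in those of CAV2 and 1 time in that of EHD2. It is found in 45% of the 35116 windows in the RefSeq table. The first windows of CAV1 overlap and hold the same GC boxes. GGAATG, the motif of TEAD factors, occurred in the window of CAVIN2 and in 14% of all windows. TGANTCA (AP-1, in 7.71% of windows) and TGACGTCA (ATF and CREB, in 1.85%) were searched on both strands as well, and these letters were not found in the 7 windows of the 4 genes. The CAVIN2 window had a GC content of 49.3%, against 61.7 to 82.7% in the windows of CAV1, CAV2 and EHD2. These matches describe letters and show no binding.

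Library totals ran from 16225691 to 22246755 counts, mitochondrial transcripts took 1.90 to 2.76% of them, and across genes, which are not independent replicates, libraries of a group correlated at 0.989 to 0.992 (log2 CPM). CPM here is the count scaled by library size with TMM factors, and 3 counts, the limit that a count of 0 allows, correspond to 0.136 to 0.191 CPM (counting error only). The targeted genes were lower in the libraries labelled for them. ATF3 was at 40.5 to 43.0 CPM in control and 11.5 to 12.5 CPM with ATF3 siRNA (adjusted p = 1.37e-09), and APOE had 46, 59 and 51 counts in control against 2, 5 and 3 with APOE siRNA (adjusted p = 1.67e-07). CXCL14 was close to the floor, with 7, 6 and 11 counts in control and 1, 1 and 0 with CXCL14 siRNA (edgeR quasi-likelihood test, adjusted p = 0.0143, and 0.0523 without control replicate 3 or 0.0579 without CXCL14 siRNA replicate 3). The call was also lost by limma-voom (adjusted p = 0.0538) and, on the log2(FPKM + 1) scale, by limma (adjusted p = 0.317). CXCL14 had 234, 78 and 142 counts with APOE siRNA. With CXCL14 siRNA the other targets were higher than in control on the log2 scale, ATF3 by 0.695 (edgeR, adjusted p = 4.96e-07) and APOE by 0.889 (adjusted p = 0.00144). Keratinocyte markers such as KRT5 were detected in all libraries (10 of 10 genes).

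Per gene length, 3 of the coat genes were abundant and 3 were not. FPKM divides a count by gene length and library size, so that genes can be compared with each other. The lengths are those of the count table. There CAV2 has 6926 bases and starts far upstream of its RefSeq start sites, so its FPKM and rank depend on that length. In control libraries CAVIN1 stood at 203.7 ± 0.62 FPKM (SD, n = 3) and CAV1 at 200.5 ± 13.3, and these neighbours in the order overlapped. EHD2 followed at 114.3 ± 3.89, CAV2 at 23.9 ± 0.31 and CAVIN3 at 14.2 ± 1.30. CAVIN2, a cavin best known from endothelium and lung, was lowest at 1.07 ± 0.15 FPKM. From EHD2 downwards, each gene was clear of the next in all 3 control libraries. Ranked among 19951 protein-coding genes by mean control FPKM, CAVIN1 was 129th, CAV1 131st and EHD2 254th. CAV2 was 1734th, CAVIN3 3026th and CAVIN2 10076th.

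**Figure D1:**
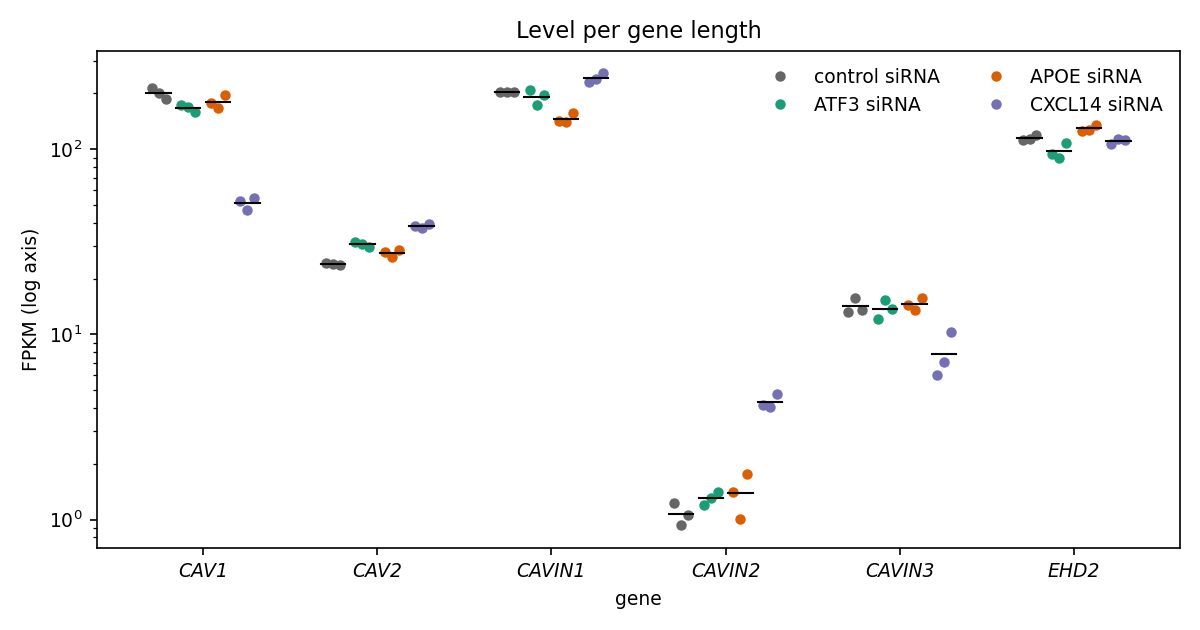
FPKM (vertical, log axis) of the 6 coat genes in each of the 12 libraries, coloured by siRNA group, with a black bar at the mean of 3. CAVIN1, CAV1 and EHD2 lie near or above 100 FPKM in control, and CAV1 is at 47.0 to 54.2 FPKM with CXCL14 siRNA while CAVIN2 lies highest there.

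CAV1, the principal caveolin, was lowest with CXCL14 siRNA. Its 3 control libraries held 883.1, 825.0 and 779.5 CPM and the 3 CXCL14 siRNA libraries 215.3, 194.4 and 223.8 CPM. Between these, ATF3 siRNA gave 719.7, 702.4 and 662.7 CPM, and APOE siRNA gave 737.1, 700.0 and 821.3 CPM. All 3 CXCL14 siRNA libraries lay far below the other 9, all ATF3 siRNA libraries lay below every control library, and the APOE siRNA range ran into the control range. The log2 difference of CXCL14 siRNA from control was -1.97 ± 0.08 (SE, here and below from 12 libraries), 3.93-fold lower, and it is the value by which the set was chosen. By its mean FPKM in CXCL14 siRNA libraries CAV1 ranked 744th of the protein-coding genes.

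With ATF3 siRNA, CAV1 fell by 0.255 ± 0.074 on the log2 scale against control (edgeR quasi-likelihood test, adjusted p = 0.0235 over 14920 genes). A gene is said to be called where this p is under 0.05, and a bare value in parentheses after a log2 change is this adjusted p. The control libraries of this test also stood in the comparison that drew attention to CAV1, so the test is not independent of that choice. The call for CAV1 was lost when some single libraries were left out. The adjusted p was 0.106 without control replicate 1, 0.0649 without control replicate 2, 0.055 without ATF3 siRNA replicate 2 and 0.0775 without ATF3 siRNA replicate 3. The log2 differences in these smaller fits were -0.207, -0.259, -0.262 and -0.222, in the same order. With APOE siRNA the difference was -0.14 ± 0.07 (adjusted p = 0.141, 95% interval -0.31 to 0.03), and it passed at 0.0443 without APOE siRNA replicate 3 and at 0.0316 with scaling by library size alone. ATF3 siRNA and APOE siRNA differed by -0.12 ± 0.07 (adjusted p = 0.241, interval -0.29 to 0.06).

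**Figure D2:**
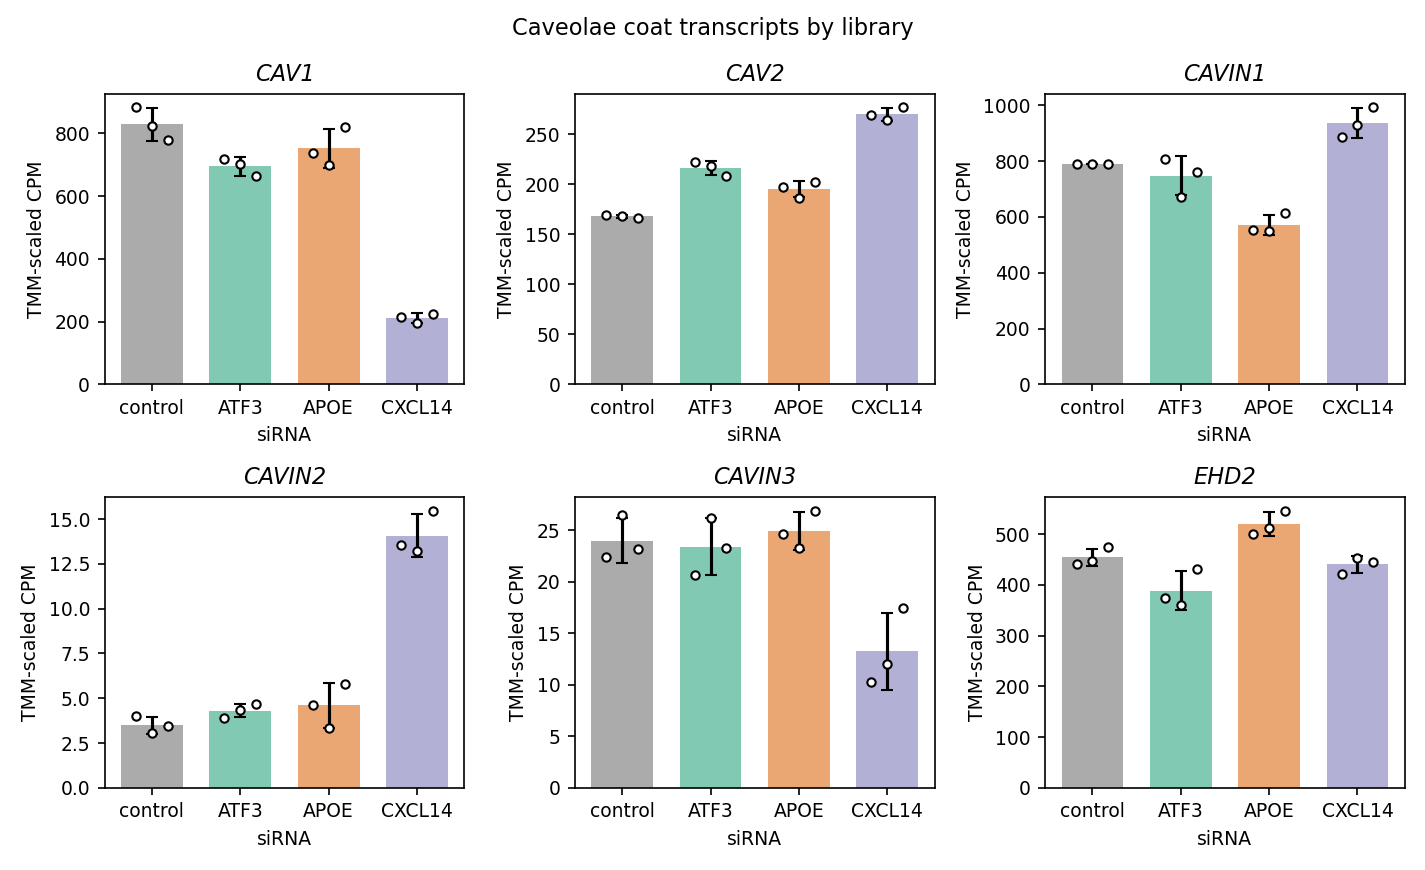
TMM-scaled CPM (vertical, from 0) of each coat gene by siRNA group; open points are the 3 libraries, bars the mean and whiskers the SD. CAV1 is at 194.4 to 223.8 CPM with CXCL14 siRNA against 779.5 to 883.1 in control, while CAV2 is lowest in control at 166.2 to 169.0 CPM and CAVIN1 is lowest with APOE siRNA.

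CAV2, the partner caveolin, was lowest in the control group. It held 169.0, 168.5 and 166.2 CPM there, 222.3, 218.3 and 208.1 with ATF3 siRNA, and 197.5, 186.5 and 202.1 with APOE siRNA. With CXCL14 siRNA it held 269.2, 263.9 and 276.7 CPM. No library of any targeting siRNA overlapped the control range, and the order of groups was control, APOE, ATF3 and CXCL14 siRNA with no overlap between neighbours. Against control CAV2 rose by 0.37 ± 0.06 on the log2 scale with ATF3 siRNA (edgeR, adjusted p = 0.000276) and by 0.22 ± 0.06 with APOE siRNA (adjusted p = 0.00473, and 0.0502 with no filter on low counts). The description for CXCL14 siRNA is a log2 difference of 0.69 ± 0.06, or 1.61-fold.

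ATF3 siRNA was higher than APOE siRNA in CAV2 by 0.15 ± 0.06, at the edge of the threshold (edgeR, adjusted p = 0.0486). This call was kept in 8 of 16 alternatives and lost without ATF3 siRNA replicate 1 (0.12) or replicate 2 (0.106), and without APOE siRNA replicate 1 (0.0913), replicate 2 (0.192) or replicate 3 (0.0538). The direction was the same in all 16.

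The ratio of the caveolins separated all 4 groups. CAV1 exceeded CAV2 in FPKM by 7.96 to 8.87 times in control libraries, 6.33 to 6.89 times with APOE siRNA and 5.40 to 5.49 times with ATF3 siRNA. With CXCL14 siRNA the ratio was 1.25 to 1.37. In FPKM CAV1 exceeded CAV2 in all 12 libraries, but with CXCL14 siRNA this order rests on the division by gene length. There CAV2 held 263.9 to 276.7 CPM and CAV1 194.4 to 223.8 CPM, with lengths of 6926 and 4082 bases in the count table. The size of the ratio depends on these lengths in every group, while the order of the groups does not. An exact permutation test of 3 against 3 libraries cannot go below p = 0.10, so none is given. The summed FPKM of both caveolins was 211.1 to 238.3 in control and 84.5 to 93.8 with CXCL14 siRNA.

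CAVIN1, the cavin that caveolae require, differed most with APOE siRNA among the tested comparisons. Control libraries held 789.6, 789.1 and 791.1 CPM, and APOE siRNA libraries 553.0, 548.4 and 613.1 CPM. ATF3 siRNA gave 807.9, 672.2 and 762.8 CPM, and CXCL14 siRNA gave 885.9, 929.0 and 992.9 CPM. The APOE siRNA libraries lay below the other 9 libraries, the ATF3 siRNA libraries straddled the control values, and the CXCL14 siRNA libraries lay above all others. CAVIN1 fell by 0.467 ± 0.073 on the log2 scale with APOE siRNA (1.38-fold, edgeR, adjusted p = 6.92e-05), and was higher with ATF3 siRNA than with APOE siRNA by 0.39 ± 0.07 (adjusted p = 0.000468). Both calls were kept in all 16 alternatives. ATF3 siRNA differed from control by -0.08 ± 0.07 (adjusted p = 0.485, interval -0.25 to 0.09), and the described difference for CXCL14 siRNA was 0.25 ± 0.07.

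CAVIN2, an accessory cavin that shapes caveolar membranes, was rare and was highest with CXCL14 siRNA. It held 66, 50 and 56 counts in control, 85, 77 and 77 with ATF3 siRNA, and 88, 61 and 91 with APOE siRNA. The CXCL14 siRNA libraries held 257, 243 and 342 counts. Only the CXCL14 siRNA libraries were clear of the rest, at 13.2 to 15.5 CPM against 3.04 to 5.81 CPM in the other 9. The described log2 difference from control was 2.01 ± 0.17, or 4.02-fold. Across the 16 alternatives it ran from 1.36, on log2(FPKM + 1), where low genes are understated, to 2.11. With ATF3 siRNA it was 0.29 ± 0.19 (edgeR, adjusted p = 0.306) and with APOE siRNA 0.38 ± 0.19 (adjusted p = 0.111, and 0.0177 without APOE siRNA replicate 2). The intervals, -0.14 to 0.72 and -0.05 to 0.82, leave room for differences that this depth could not show.

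CAVIN3, which binds protein kinase C delta and assembles with CAVIN1, was lowest with CXCL14 siRNA. The CXCL14 siRNA libraries held 10.2, 12.04 and 17.5 CPM, and the third lay above the others. Control held 22.4, 26.5 and 23.1 CPM, ATF3 siRNA 20.7, 26.2 and 23.3, and APOE siRNA 24.6, 23.3 and 26.9. Those 9 libraries overlapped between groups and all lay above the CXCL14 siRNA libraries. The described difference of CXCL14 siRNA from control was -0.85 ± 0.15, and -1.11 to -0.69 across the 16 alternatives. ATF3 siRNA differed from control by -0.04 ± 0.15 (edgeR, adjusted p = 0.892, interval -0.38 to 0.30) and APOE siRNA by 0.05 ± 0.15 (adjusted p = 0.796, interval -0.29 to 0.39).

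EHD2, the neck ATPase, moved in opposite directions with ATF3 and APOE siRNA. Control libraries held 441.5, 447.3 and 474.2 CPM, ATF3 siRNA 375.0, 359.8 and 432.0, APOE siRNA 499.6, 512.6 and 546.0, and CXCL14 siRNA 421.7, 454.0 and 445.6. ATF3 siRNA lay below and APOE siRNA above the control range with no overlap, and CXCL14 siRNA overlapped control. The direct difference between ATF3 and APOE siRNA was -0.42 ± 0.07 (edgeR, adjusted p = 0.000189), a call kept in all 16 alternatives. The described difference of CXCL14 siRNA from control was -0.05 ± 0.07 and turned to 0.02 with scaling by library size alone.

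Each difference from control was small. EHD2 fell by 0.224 ± 0.07 with ATF3 siRNA (edgeR, adjusted p = 0.0339) and rose by 0.19 ± 0.07 with APOE siRNA (adjusted p = 0.0349). The fall was not called without control replicate 1 (0.0562), 2 (0.0751) or 3 (0.0792) or without ATF3 siRNA replicate 1 (0.0731) or 2 (0.143), nor in a fit of those groups alone (0.0551). The rise was not called without control replicate 1 (0.104) or 2 (0.107) or without APOE siRNA replicate 2 (0.0676) or 3 (0.138), nor with library size alone (0.0869) or no filter (0.0865).

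**Figure D3:**
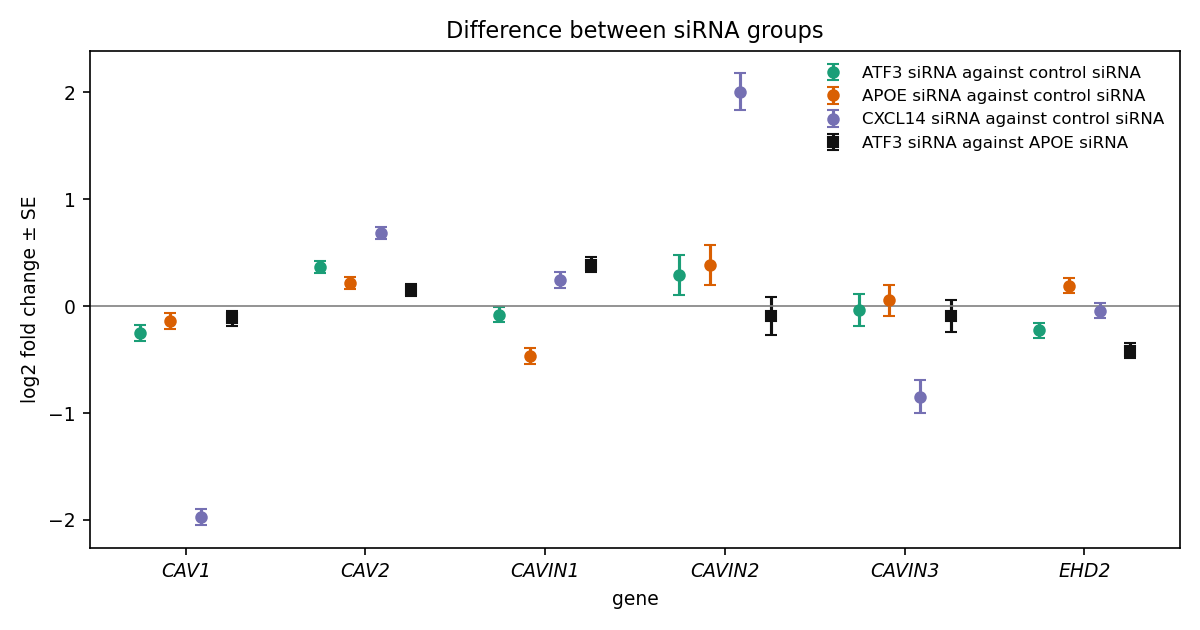
Log2 fold change (vertical) ± SE of each coat gene in 4 comparisons, with 0 marked. CAV1 and CAVIN2 lie farthest from 0 with CXCL14 siRNA, at -1.97 and 2.01, and EHD2 lies on opposite sides of 0 with ATF3 siRNA and APOE siRNA.

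Counted together, 3 of the 6 coat genes were called with ATF3 siRNA against control, 1 up (CAV2) and 2 down (CAV1, EHD2), where 20.4% of all tested genes were called. Without control replicate 1, control replicate 2 or ATF3 siRNA replicate 2 the count was 1. With APOE siRNA 3 of 6 were called, CAV2 and EHD2 up and CAVIN1 down, against 44.8% of all genes, so this share is near the background. ATF3 siRNA against APOE siRNA also gave 3 of 6, CAV2 and CAVIN1 higher and EHD2 lower, against 38.2% of all genes. The median log2 differences of the 6 genes were -0.06, 0.12 and -0.09 in these comparisons, beside 0.00, 0.01 and -0.01 over all genes tested. The comparisons with control share its libraries, so their values stand side by side and no agreement between them is counted. For CAV1, called with ATF3 siRNA, those control libraries also stood in the comparison that chose the set. In the comparisons holding CXCL14 siRNA, which chose the set, 55.8% of genes were called against control, 53.7% for ATF3 siRNA against CXCL14 siRNA and 55.5% for APOE siRNA against CXCL14 siRNA.

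The make-up of the coat transcripts thus differed between groups in several ratios. CAV1 over CAVIN1, in FPKM, was 0.92 to 1.05 in control, 0.81 to 0.98 with ATF3 siRNA, 1.20 to 1.26 with APOE siRNA and 0.20 to 0.23 with CXCL14 siRNA. The control and ATF3 siRNA ranges overlapped, and the others stood apart. CAVIN1 over CAVIN3 was 13.0 to 15.4 in control, 11.2 to 17.1 with ATF3 siRNA, 9.81 to 10.3 with APOE siRNA and 24.9 to 37.8 with CXCL14 siRNA. CAVIN1 over CAVIN2 was 166.9 to 218.9 in control and 54.2 to 59.2 with CXCL14 siRNA. The summed FPKM of the 3 cavins, nearly all of it CAVIN1, was 217.6 to 220.5 in control, 154.3 to 173.6 with APOE siRNA and 239.3 to 271.6 with CXCL14 siRNA.

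**Figure D4:**
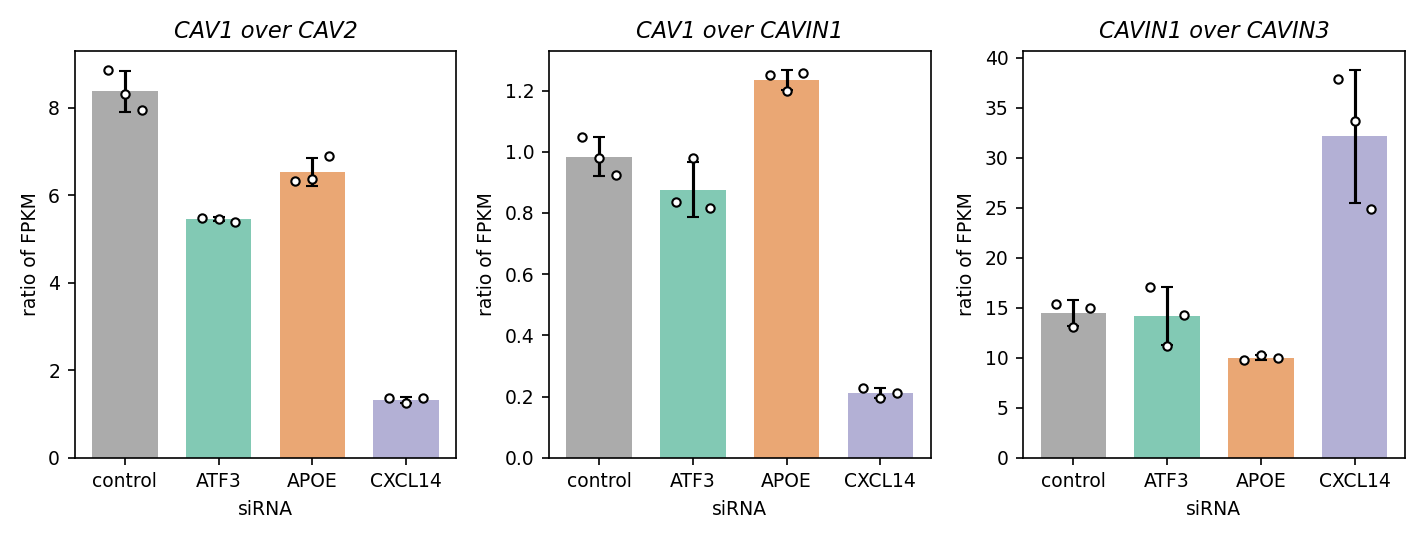
Ratios of FPKM (vertical, from 0) by siRNA group; open points are the 3 libraries, bars the mean and whiskers the SD. CAV1 over CAV2 is 7.96 to 8.87 in control and 1.25 to 1.37 with CXCL14 siRNA, CAV1 over CAVIN1 is 0.20 to 0.23 there, and CAVIN1 over CAVIN3 is highest there at 24.9 to 37.8.

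The genes around CAV1 and CAV2 on chromosome 7 did not share CAV1's difference in size. Within 500 kb, 4 other protein-coding genes were tested, and a further gene, TFEC, did not pass the filter. MET, the hepatocyte growth factor receptor, is the next gene downstream of CAV1 (chr7:116672390-116798386). It held 320.4 to 338.3 CPM in control, 270.9 to 297.2 with ATF3 siRNA, 261.3 to 283.8 with APOE siRNA and 227.7 to 235.3 with CXCL14 siRNA, so that every targeting siRNA lay below control. MET fell by 0.51 ± 0.058 on the log2 scale with CXCL14 siRNA (edgeR, adjusted p = 1.46e-06), by 0.272 ± 0.058 with APOE siRNA (0.00115) and by 0.217 ± 0.058 with ATF3 siRNA (0.0148, and 0.0591 without control replicate 1 or 0.0633 without ATF3 siRNA replicate 2).

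CAPZA2, an actin capping subunit, and ST7 lie farther downstream. With CXCL14 siRNA CAPZA2 fell by 0.493 ± 0.095 (edgeR, adjusted p = 0.000327) and ST7 by 0.353 ± 0.1 (adjusted p = 0.00697). TES, a focal adhesion protein gene upstream of CAV2, was at 160.8 to 177.4 CPM in control and 155.9 to 170.2 CPM with CXCL14 siRNA, a difference of -0.04 ± 0.07 (adjusted p = 0.607). Along this stretch CAV2 was thus the gene with a higher level in CXCL14 siRNA libraries, beside CAV1, 3 lower genes and TES without a called difference.

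**Figure D5:**
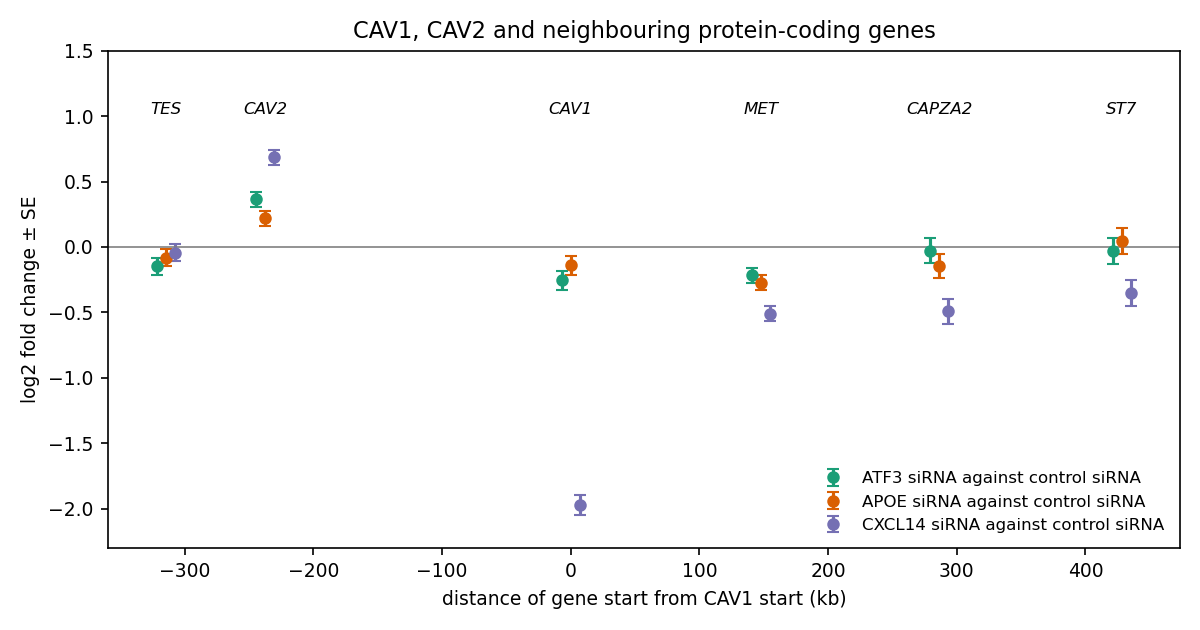
Log2 fold change (vertical) ± SE against control for CAV1, CAV2 and the tested protein-coding genes within 500 kb, by the distance of their starts from the CAV1 start (horizontal, kb). Starts are those of the count table, so CAV2 is drawn far upstream of its RefSeq start sites. CAV1 is at -1.97 with CXCL14 siRNA, MET at -0.51, CAPZA2 at -0.49 and ST7 at -0.35, while CAV2 is above 0 with all 3 siRNAs.

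Across the 12 libraries, the levels of the other coat genes followed CAV1 to different degrees. Pearson's r of log2 CPM with CAV1 was 0.90 for CAVIN3, 0.12 for EHD2, -0.66 for CAVIN1, -0.88 for CAV2 and -0.95 for CAVIN2. The 12 points fall into 4 groups, and the CXCL14 siRNA group sets most of each value, so these are descriptions. Of the 10159 protein-coding genes averaging 5 CPM or more, the 5 most like CAV1 were ANXA2, SHCBP1, SPDL1, PTHLH and SEPT11, at r of 0.994 to 0.995. ANXA2 encodes a calcium-dependent protein of the inner membrane face and held 2374 to 2747 CPM in control, 2047 to 2376 with ATF3 siRNA, 2033 to 2141 with APOE siRNA and 376.7 to 402.6 with CXCL14 siRNA. PTHLH encodes parathyroid hormone-like hormone, SPDL1 a kinetochore adaptor of dynein, SHCBP1 an adaptor that binds SHC1 and SEPT11 a septin. Mean PTHLH levels were 95.5 CPM in control, 76.3 with ATF3 siRNA, 89.0 with APOE siRNA and 26.2 with CXCL14 siRNA.

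The 5 genes most opposite to CAV1 were WNK4, OS9, PGPEP1, DMPK and CELSR3, at r of -0.992 to -0.985. WNK4, a kinase that regulates ion transporters, averaged 4.38 CPM in control, 5.16 with ATF3 siRNA, 4.72 with APOE siRNA and 26.8 with CXCL14 siRNA. OS9, a lectin of the endoplasmic reticulum, averaged 119.2 CPM in control and 193.6 with CXCL14 siRNA. CELSR3, an atypical cadherin, averaged 17.7 and 90.8 CPM in these groups. As with CAV1, the CXCL14 siRNA libraries stood apart and the other groups lay close together.

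The relatives of the coat genes include 3 genes that did not pass the filter. CAV3, the muscle caveolin, and PACSIN1, the neuronal pacsin, had at most 2 and 3 counts summed over the 3 libraries of any group, and CAVIN4, the muscle cavin, at most 24. The calls in this and the following gene lists are to be read against the share of all genes called, 20.4% with ATF3 siRNA, 44.8% with APOE siRNA and 55.8% with CXCL14 siRNA against control. Of the 5 relatives tested (EHD1, EHD3, EHD4, PACSIN2, PACSIN3), 1 rose and 2 fell with CXCL14 siRNA. EHD3, an endocytic recycling ATPase, rose by 1.19 ± 0.12 (edgeR, adjusted p = 5.39e-07), EHD4 fell by 0.405 ± 0.066 (6.8e-05) and PACSIN3, which bends membranes, fell by 0.207 ± 0.062 (0.0098, and 0.056 with library size alone). With APOE siRNA 2 rose and 2 fell: EHD4 fell by 0.827 ± 0.067 (6.47e-08) and EHD1 by 0.763 ± 0.081 (1.41e-06), while PACSIN3 rose by 0.75 ± 0.06 (7.61e-08) and EHD3 by 0.62 ± 0.13 (0.000823). With ATF3 siRNA EHD3 rose by 0.61 ± 0.13 (0.00305) and PACSIN3 by 0.33 ± 0.06 (0.00141), and the other three did not pass. ATF3 siRNA was higher than APOE siRNA in EHD4 by 0.70 ± 0.07 (5.07e-07) and EHD1 by 0.56 ± 0.08 (4.32e-05) and lower in PACSIN3 by 0.42 ± 0.06 (3.88e-05).

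EHD2 and its paralogues thus had different orders of levels. In mean CPM, EHD2 was highest with APOE siRNA at 519.4 ± 23.9 (SD, n = 3), whereas EHD1 and EHD4 were lowest there, at 147.5 ± 10.1 and 100.2 ± 4.49, against 250.3 ± 8.18 and 177.7 ± 9.51 in control. EHD3 was the rarest, at 8.13 ± 1.24 CPM in control and 18.6 ± 1.12 with CXCL14 siRNA.

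Caveolin turnover runs through the ATPase VCP and its cofactor UBXN6, which take ubiquitinated CAV1 to lysosomes, and through the ubiquitin-binding ANKRD13 proteins. Of these 5 genes, 3 rose with CXCL14 siRNA: UBXN6 by 1.03 ± 0.08 (edgeR, adjusted p = 8.43e-09), ANKRD13B by 0.64 ± 0.13 (0.000522) and ANKRD13A by 0.19 ± 0.06 (0.0167). The last was not called without control replicate 1 (0.0599) or CXCL14 siRNA replicate 2 (0.0568) or 3 (0.0624), nor without a filter (0.114). UBXN6 stood at 92.0 to 107.7 CPM in control and 184.5 to 213.1 CPM with CXCL14 siRNA. With APOE siRNA UBXN6 rose by 0.38 ± 0.08 (0.000637) while ANKRD13A fell by 0.508 ± 0.063 (7.36e-06) and ANKRD13B by 0.64 ± 0.136 (0.00115). VCP was also called up there by 0.17 ± 0.06 (0.0256), a call lost without control replicate 2 (0.109) or 3 (0.0784) or APOE siRNA replicate 2 (0.0574) or 3 (0.115). The VCP call was lost as well with library size alone (0.0945) or no filter (0.173).

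With ATF3 siRNA 2 of the 5 turnover genes were called up and 1 down, all near the threshold. UBXN6 rose by 0.27 ± 0.08 (edgeR, adjusted p = 0.019) and was not called without control replicate 1 (0.0925), control replicate 2 (0.0828) or ATF3 siRNA replicate 3 (0.0679). ANKRD13D rose by 0.31 ± 0.09 (0.0292) and was not called without control replicate 1 (0.0899), control replicate 2 (0.111) or ATF3 siRNA replicate 3 (0.142). Nor was ANKRD13D called by limma on log2(FPKM + 1) (0.0556) or log2(FPKM + 0.1) (0.0544), or in a fit of those groups alone (0.0558). ANKRD13A fell by 0.223 ± 0.062 (0.0193) and was not called without control replicate 2 (0.0721) or ATF3 siRNA replicate 1 (0.0719).

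Of 9 genes for kinases of caveolin and links from caveolae to actin, 3 rose and 3 fell with CXCL14 siRNA, where 55.8% of all genes were called. DIAPH1, a formin, fell by 0.564 ± 0.058 (edgeR, adjusted p = 4.49e-07) and YES1, a Src-family kinase, by 0.513 ± 0.064 (4.51e-06), while FYN, another Src-family kinase that can phosphorylate CAV1, rose by 0.56 ± 0.10 (0.000245) and the actin crosslinker FLNA by 0.26 ± 0.08 (0.0084). With APOE siRNA, where 44.8% of all genes were called in either direction, 6 of 9 fell, among them DIAPH1 by 0.795 ± 0.058 (2.13e-08) and the ABL1 kinase by 0.535 ± 0.073 (1.82e-05). With ATF3 siRNA DIAPH1 fell by 0.341 ± 0.058 (0.000615) and the others did not pass. The list medians were -0.06, -0.27 and -0.04 with CXCL14, APOE and ATF3 siRNA.

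Other raft proteins did not follow CAV1 as a group. Flotillins build membrane domains that are distinct from caveolae. With CXCL14 siRNA FLOT1 differed by 0.02 (edgeR, adjusted p = 0.84) and FLOT2 by -0.03 (0.795), and both were chosen after their values were seen. Of 11 tested raft genes, ANXA2 fell by 2.684 ± 0.074 (4.73e-13), while LIME1 (0.56 ± 0.14, 0.00325) and MAL2 (0.21 ± 0.07, 0.0175) rose. The MAL2 rise was not called without control replicate 3 (0.0622) or CXCL14 siRNA replicate 3 (0.0516), and 2 genes were called down without the latter. With APOE siRNA 1 rose and 7 fell. STOM, stomatin, rose by 0.78 ± 0.06 (4.95e-08) and the raft adaptor PAG1 fell by 1.641 ± 0.206 (8.36e-06).

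With ATF3 siRNA 3 of the 11 raft genes rose and 3 fell. STOM rose by 0.28 ± 0.06 (edgeR, adjusted p = 0.00491) and MAL2 by 0.30 ± 0.07 (0.00561). FLOT2 fell by 0.275 ± 0.076 (0.0188) and was not called without control replicate 1 (0.0584) or ATF3 siRNA replicate 2 (0.087). PAG1 fell by 0.588 ± 0.189 (0.0377), and this call was lost without control replicate 1 (0.114) or 3 (0.094), or without any one of the ATF3 siRNA replicates (0.104, 0.052 and 0.0872). The PAG1 call was lost as well by limma on log2(FPKM + 1) (0.0516) and log2(FPKM + 0.1) (0.0857). ANXA2 was the third, at -0.21 ± 0.07 (0.0484). The falls called in this list numbered 1 without control replicate 1 or ATF3 siRNA replicate 3, and all 3 genes missed the threshold without ATF3 siRNA replicate 2.

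Clathrin-coated pits are the main other route of uptake from the membrane, and their genes split. Of 24, 6 rose and 10 fell with CXCL14 siRNA, with a list median of -0.04 beside 0.01 for all genes. The clathrin adaptors HIP1 and FCHO2 fell by 1.992 ± 0.114 (edgeR, adjusted p = 5.09e-10) and 1.203 ± 0.096 (2.55e-08), and EPS15, a scaffold of the coat, by 0.927 ± 0.077 (4.12e-08). With APOE siRNA 8 rose and 8 fell. The scaffold ITSN1 fell by 1.527 ± 0.087 (1.57e-09) and the adaptor DAB2 by 1.814 ± 0.21 (3.48e-06). With ATF3 siRNA 1 rose and 5 fell, and 3 fell without ATF3 siRNA replicate 2. The rise, of SH3GL1 (0.21 ± 0.07, 0.0363, chosen after its value was seen), was not called without control replicate 1 or 2 or ATF3 siRNA replicate 3. AP2M1, a subunit of the AP-2 adaptor, fell by 0.342 ± 0.058 there (0.000625).

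Receptors described in caveolae, listed together with the enzyme NOS3, made up 10 tested genes, of which 4 fell and 1 rose with CXCL14 siRNA. PLAUR, the urokinase receptor, fell by 1.204 ± 0.069 (edgeR, adjusted p = 5.41e-10), the TGF-beta receptors TGFBR2 and TGFBR1 by 0.578 ± 0.059 (4.09e-07) and 0.644 ± 0.09 (1.39e-05), and the lipoprotein receptor SCARB1 by 0.467 ± 0.07 (3.21e-05). The rise was that of NOS3, the endothelial nitric oxide synthase (1.18 ± 0.44, 0.0297, chosen after its value was seen), and it was not called without control replicate 2 or CXCL14 siRNA replicate 1 or 2. EGFR, also chosen after its value was seen, differed by -0.07 (0.521). With APOE siRNA 4 rose and 1 fell: SCARB1 rose by 0.61 ± 0.07 (3.09e-06), TGFBR2 by 0.34 ± 0.06 (0.000178) and PTCH1 by 0.57 ± 0.12 (0.000813), while PLAUR fell by 0.731 ± 0.068 (3.26e-07). With ATF3 siRNA TGFBR1 rose by 0.62 ± 0.09 (0.000112), TGFBR2 by 0.40 ± 0.06 (0.000172) and SCARB1 by 0.32 ± 0.07 (0.00489). IGF1R fell by 0.376 ± 0.093 there (0.0095, and 0.0539 without ATF3 siRNA replicate 2), and 2 genes of this list were called down without control replicate 1.

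YAP1 and WWTR1 are co-activators that work through TEAD factors and respond to stretch, and caveolar genes are among the genes they are known to regulate. With CXCL14 siRNA WWTR1 fell by 1.161 ± 0.078 (edgeR, adjusted p = 3.49e-09) and YAP1 by 0.585 ± 0.086 (2.37e-05), while TEAD3 rose by 0.47 ± 0.09 (0.000304). TEAD1 was called up by 0.25 ± 0.09 (0.0254), a call lost without control replicate 3 (0.0871) or CXCL14 siRNA replicate 1 (0.113) or 2 (0.0921). With APOE siRNA TEAD3 rose by 0.75 ± 0.09 (4.96e-06) and TEAD2 by 0.68 ± 0.10 (5.32e-05), and 3 of the 6 were called down without APOE siRNA replicate 2. With ATF3 siRNA, TEAD1 fell by 0.528 ± 0.09 (0.000673).

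Of 22 genes listed as targets of YAP and TEAD, 14 rose and 3 fell with CXCL14 siRNA, with a list median of 0.41 beside 0.01 over all genes. Of all genes 55.8% were called in that comparison, and 49.1% of those calls were up. CCN1, a matricellular protein, rose by 1.61 ± 0.08 (edgeR, adjusted p = 1.54e-10), CCDC80 by 2.40 ± 0.09 (1.11e-11) and CRIM1 by 1.14 ± 0.06 (3.09e-10). NT5E, the ecto-nucleotidase CD73, fell by 1.865 ± 0.064 (3.42e-12). CCN1 was at 240.2 to 252.1 CPM in control and 688.4 to 817.2 CPM with CXCL14 siRNA. With APOE siRNA 4 rose and 6 fell, among them CCDC80 up by 1.38 ± 0.09 (1e-08) and NT5E down by 1.35 on the log2 scale (2e-10). With ATF3 siRNA 7 rose and 3 fell, among them the tissue factor gene F3 up by 0.70 ± 0.06 (1.04e-06) and NT5E, which fell by 0.743 ± 0.062 (7.61e-07). In the direct comparisons 3 were higher and 13 lower with ATF3 siRNA than with CXCL14 siRNA (53.7% of all genes were called), and 2 higher and 15 lower with APOE siRNA than with CXCL14 siRNA (55.5%). Comparing ATF3 siRNA with APOE siRNA, 10 were higher and 3 lower (5 lower without ATF3 siRNA replicate 3). Of all genes 38.2% were called in that comparison, and 53.1% of those calls were higher with ATF3 siRNA.

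Markers of other cell types were low in sum or led by 1 gene. The 10 endothelial markers summed to 1.58 to 3.94 CPM in any library. Adipocyte markers summed to 24.0 to 26.5 CPM in control and 52.4 to 64.3 with CXCL14 siRNA, led by LIPE, with ADIPOQ, LEP and FABP4 at 0 counts in all 12 libraries. Smooth muscle markers summed to 214.2 to 229.7 CPM in control, 120.1 to 128.9 with APOE siRNA and 118.3 to 139.5 with CXCL14 siRNA, led by SMTN, with DES and MYOCD at 0. Fibroblast markers summed to 29.6 to 41.4 CPM in control, 84.7 to 97.2 with APOE siRNA and 18.6 to 22.7 with CXCL14 siRNA, led by COL1A1, with DPT at 0. Melanocyte and immune markers summed to at most 6.65 and 6.32 CPM, with TYR and with PTPRC, CD3E, LYZ, MS4A1 and TYROBP at 0.

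The sum of the 10 keratinocyte markers differed between groups, apart from ATF3 siRNA, whose range overlapped that of control. They summed to 29010 to 32120 CPM in control, 30960 to 33480 with ATF3 siRNA, 38890 to 41670 with APOE siRNA and 20770 to 21630 with CXCL14 siRNA. KRT5, a basal keratin, averaged 11760 CPM in control, 17950 with APOE siRNA and 8894 with CXCL14 siRNA. The part of these differences in the values of the coat genes was not tested. In bulk RNA, fewer cells of a type and less RNA per cell cannot be told apart.

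Genes that overlap the coat genes held few counts. The labels name directional and non-directional libraries, and no source used here gives the strand setting of the counts. Genes on the opposite strand within CAV1, CAV2, CAVIN2 and CAVIN3 held at most 12 counts in any library, where the lowest counts of these 4 genes were 3568, 2682, 50 and 194. Within CAVIN2 the overlapping gene had at most 1 count. CAVIN1 had no overlapping gene in the table, and the one on the same strand as EHD2 held at most 6 counts.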

How the data were processed

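Polyadenylated RNA of 12 N/TERT-2G libraries (4 siRNA groups of 3) was sequenced. The authors deposited raw counts per gene and FPKM per gene and library, with HISAT2 2.0.5, featureCounts 1.5.0-p3 and hg38 named in the submitters' processing notes. No source used here names the annotation. The deposited FPKM equal the count over gene length times 1 constant per library (largest relative deviation 5.2e-15, at 50 counts or more). 0 columns were left unmapped.

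Counts were filtered with filterByExpr (14920 genes, 99.9% of counts), scaled by TMM and fitted across all genes with 1 term per group over 12 libraries (edgeR 4.0.16, R 4.3.3, glmQLFit and glmQLFTest). Benjamini-Hochberg adjustment ran over all 14920 genes in each comparison, with calls below 0.05. The SE is the log2 fold change over the square root of F. Values in parentheses after a log2 change are these adjusted p. On simulated data for CXCL14 siRNA against control, 199 of 200 changed genes were called (49 of 50 at 1.5-fold, the others at larger folds), as were 7 unchanged genes among 14593 genes run. The changed genes were drawn from those at 5 CPM or more in control, and all genes were given the same dispersion. No change smaller than 1.5-fold was simulated. The simulation therefore gives no rate for smaller differences or for rarer genes such as CAVIN2 and CXCL14.

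The 6 genes, 8 gene lists and 7 marker lists were chosen with earlier results of these data known, so no list supports a direction. Named are the 6 genes, the siRNA targets, up to 4 called genes with the smallest adjusted p per list and comparison (2 by CPM where none was called; a part is given), tested protein-coding genes within 500 kb of CAV1 and CAV2, and the 5 genes per side by correlation with CAV1 (log2 CPM, prior count 2). CCN1 and CCN2 were matched by gene ID. Alternatives were DESeq2 1.42.0, limma 3.58.1, other filters and scaling, log2(FPKM + 1) and log2(FPKM + 0.1), a replicate block, and leaving out each library.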

Additional observations from a re-analysis of the deposited data

How the results depend on the processing

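Across 22 alternatives (12 of them leaving out 1 library), 3734 values of named genes were compared, and no called value among them changed sign. Of these values, 88 were no longer called, 6 became called and the others stayed on their side of the threshold. The values of NOS3 with CXCL14 siRNA and of SH3GL1 and ANXA2 with ATF3 siRNA were not among them. Signs did change in 14 values that were not called, among them CAVIN3 with APOE siRNA (-0.007 to 0.13) and ATF3 siRNA (-0.128 to 0.042) against control and CAVIN2 for ATF3 against APOE siRNA (-0.277 to 0.1). EHD2's described difference with CXCL14 siRNA, -0.045, was 0.018 with library size alone. Of 288 described values of the coat genes in comparisons with CXCL14 siRNA, 12 moved by more than the spread between replicates, mostly with library size alone. The count of coat genes called was 3 in each tested comparison. For APOE siRNA against control it was 1 with no filter on low counts, where CAV2 and EHD2 missed the threshold. Leaving out 1 library gave 1 to 2 for ATF3 siRNA against control, 2 to 3 for APOE siRNA against control and 2 to 3 for ATF3 siRNA against APOE siRNA; the cause was not tested. Of 1536 list counts, 104 moved by over 1.5 times. With the replicate number as a block the count stayed at 3 in each of these comparisons. Same-numbered libraries deviated together at r of -0.021 to 0.234, over 0.1 in 11 of 18 pairs. Libraries of different number ran from -0.238 to 0.1, so the higher values came with shared numbers. The block also raised the share of genes called in each comparison, from 44.8 to 49.8% for APOE siRNA against control. Not every library correlated best with its own number, so a pairing was not established over the groups. It was not used in the main fit, which leaves any shared replicate effect in the spread. All 3 same-numbered pairs of APOE and CXCL14 siRNA were over 0.1 (0.225, 0.104 and 0.234), but a shared source of same-numbered libraries cannot be told from these values. For ATF3 siRNA against control, 3041 genes were called in all, 4138 with the block and 1916 without control replicate 1. With library size alone the share of calls that were up changed from 55.2 to 44% for ATF3 siRNA against control, from 52.9 to 41.5% for ATF3 against CXCL14 siRNA and from 52 to 39.6% for APOE against CXCL14 siRNA, and the median log2 difference of all genes was -0.105 and -0.114 in the last 2. It changed from 49.8 to 41.3% for APOE siRNA against control, from 49.1 to 55.7% for CXCL14 siRNA against control and from 53.1 to 56% for ATF3 against APOE siRNA. CXCL14 itself is near the floor and CAVIN2 has 50 to 342 counts a library, so depth limits both.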
